A study of Mus musculus with 18 samples.

Results

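The genes described here are 9 basic helix-loop-helix (bHLH) transcription factors of the neural lineage, Neurog1, Neurog2, Neurog3, Neurod1, Neurod2, Atoh1, Olig1, Olig2 and Olig3. They were taken by name, with earlier results of these data known, out of 26794 mouse genes with an annotated start on the 19 autosomes and X, of which 17274 are protein-coding. The cells were E14 mouse embryonic stem cells, an established line, grown without feeders on gelatin in 2i/LIF medium (inhibitors of GSK3 and MEK with leukemia inhibitory factor), with isotope-labelled arginine and lysine. Chromatin immunoprecipitation with sequencing (ChIP-seq) mapped 5 histone marks in untreated cells, H3K27me1, H3K27me2, H3K27me3, H3K36me2 and H3K36me3, with 2 libraries each and no spike-in. A second set measured H3K27me3 and H3K36me2 after 7 days in 10 µM EPZ6438, an inhibitor of the methyltransferase EZH2, or in the same volume of DMSO, with 2 libraries per group and Drosophila S2 chromatin added at 0.05% of the total before immunoprecipitation. All libraries came from the same cell line, no genotype differed between groups, and the labels do not say whether replicate libraries came from separate cultures, so the tests below measure the spread between libraries.

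Proneural bHLH factors bind E-box DNA as dimers with ubiquitously expressed E proteins and drive progenitors towards neuronal fates, while the Olig factors act in the specification of motor neurons, oligodendrocytes and dorsal interneurons. Notch signalling restrains the proneural genes through Hes and Hey repressors, and Id proteins sequester the E proteins. In embryonic stem cells the genes of such lineage regulators are classical targets of Polycomb repressive complex PRC2, whose catalytic subunit EZH2 (or EZH1) places methyl groups on lysine 27 of histone H3. H3K36me2, placed mainly by NSD enzymes, is broad in intergenic and transcribed regions, and H3K36me3 marks transcribed gene bodies.

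The promoters of 4 genes are shown because their genes span the range of results: Neurog2 and Neurog1 carried high H3K27me3, Olig2 kept the highest H3K27me3 level of the 9 after the inhibitor, and Olig3 carried the lowest level in untreated cells. Each line holds the 250 bases before the RefSeq start (GRCm38.p6, the assembly also called mm10), read 5′ to 3′ on the strand of the gene, and the capitals mark CpG dinucleotides, which are dense in the islands that PRC2 occupies.
Neurog1, chr13:56252181-56252430, strand minus: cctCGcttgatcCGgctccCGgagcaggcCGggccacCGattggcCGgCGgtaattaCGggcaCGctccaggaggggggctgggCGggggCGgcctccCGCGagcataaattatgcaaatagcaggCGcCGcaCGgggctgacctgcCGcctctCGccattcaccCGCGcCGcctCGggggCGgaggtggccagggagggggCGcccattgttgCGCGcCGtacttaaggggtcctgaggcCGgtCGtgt
Neurog2, chr3:127632886-127633135, strand plus: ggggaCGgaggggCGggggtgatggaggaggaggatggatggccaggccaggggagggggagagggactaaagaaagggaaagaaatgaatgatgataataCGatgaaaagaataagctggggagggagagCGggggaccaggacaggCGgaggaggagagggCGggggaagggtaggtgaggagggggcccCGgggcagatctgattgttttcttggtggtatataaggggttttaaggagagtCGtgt
Olig2, chr16:91225300-91225549, strand plus: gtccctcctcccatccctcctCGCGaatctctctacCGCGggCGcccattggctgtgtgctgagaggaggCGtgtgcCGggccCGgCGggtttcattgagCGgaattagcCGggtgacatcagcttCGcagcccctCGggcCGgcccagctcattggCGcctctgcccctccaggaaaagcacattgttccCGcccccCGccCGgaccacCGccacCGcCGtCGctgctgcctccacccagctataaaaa
Olig3, chr10:19356289-19356538, strand plus: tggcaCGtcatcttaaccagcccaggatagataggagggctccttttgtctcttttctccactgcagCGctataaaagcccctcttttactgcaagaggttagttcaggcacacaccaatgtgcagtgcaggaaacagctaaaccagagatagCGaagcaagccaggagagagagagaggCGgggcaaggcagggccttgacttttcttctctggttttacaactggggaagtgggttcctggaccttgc
The Neurog1 stretch holds 29 CpG dinucleotides, Olig2 22, Neurog2 8 and Olig3 4. Of the other members with a RefSeq entry, Neurod1 has 22, Neurog3 18, Atoh1 14 and Neurod2 11, against a median of 10 over 17273 promoters of this length. The RefSeq start entry of Neurog2 lies inside the annotated span of the gene, so the stretch shown for it falls within that span. The E-box CANNTG, the letters bHLH dimers bind, occurs on either strand in 4 of the 8 stretches (Neurog3, Neurod1, Neurod2 and Olig3) and in 62.7% of all promoters. The variant CATATG, one case of CANNTG, is in Neurod1 and Neurod2 and in 2.80% of all promoters. The variant CAGCTG is in Neurog3 and in 11.7% of all promoters, and CAGATG in Neurod2 and in 12.5%. The letters TATAAA are in Olig2 and Olig3 and in 12.5% of all promoters.

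The labelled cell type was checked on H3K36me3 in the 2 untreated libraries of that mark, and the other libraries were not checked in this way. H3K36me3 over the gene body was 4.70 to 8.07 times the genome mean at 6 of 7 stem cell genes (among them Pou5f1 at 7.31 ± 0.622 and Nanog at 6.87 ± 0.700, SD, n = 2) and 1.25 at Dppa5a, against a median of 1.78 over protein-coding genes. Among the stem cell genes with a start entry, Esrrb carried H3K27me3 at its start (6.56 times the genome mean). Fibroblast markers (5 genes) lay between 0.140 at Dcn and 2.02 at Col1a1, primitive endoderm markers (4 genes) between 0.956 and 1.99, and the neural progenitor marker Nes was at 4.84. Untreated libraries held 17.3 to 50.9 M reads and quantitative H3K36me2 libraries 38.2 to 84.4 M. H3K27me3 held 16.3 and 21.1 M reads in DMSO and only 0.750 and 1.34 M after the inhibitor, so the treated H3K27me3 values rest on few reads. Levels are means over the start ± 1 kb, divided by the mean of the whole genome in the same library unless a scale is named.

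In untreated cells all 9 starts lay in H3K27me3 peaks and none in H3K27me1 or H3K27me2 peaks. A deposited H3K27me3 peak, called by the submitters as replicated between the 2 libraries, overlapped the start of 9 of 9 genes, against 34.8% of protein-coding genes. No H3K27me1 peak (34% of protein-coding genes) and no H3K27me2 peak (39.9%) touched any of the 9 starts. H3K36me2 peaks overlapped 6 of 9 starts, against 57.9% of protein-coding genes, and missed Neurog2, Atoh1 and Olig2. At Neurod2 that overlap was 144 bases at the upstream edge. Requiring 1 kb of overlap, or the upper 50% of peaks by score, left H3K27me3 at 9 of 9 (30.6% and 29.1% of protein-coding genes). Under the same rules H3K36me2 was left at 5 and 3 of 9 (50% and 48.7%).

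The neurogenins, which initiate neurogenesis, had the highest or near-highest H3K27me3. Neurog2 (chr3:127632733-127635636), a determination factor of cortical and motor neurons, had 17.1 and 15.96 times the genome mean in the 2 libraries. Neurog1 (chr13:56250478-56252180), needed for cranial sensory neurons, had 14.3 and 15.8. Neurog3 (chr10:62133090-62134763), best known for specifying endocrine cells of the pancreas, had 15.8 and 14.5. Both Neurog2 libraries lay above every Neurog1 and Neurog3 library, while Neurog1 and Neurog3 overlapped. Their percentiles among protein-coding genes were 99.8, 99.5 and 99.6.

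The neuronal differentiation genes differed between themselves. Neurod2 (chr11:98325415-98329645), a factor of maturing cortical neurons, had 14.1 and 15.96 times the genome mean. Neurod1 (chr2:79452637-79456636), which acts in neurons and in pancreatic beta cells, had 5.55 and 5.76. Atoh1 (chr6:64729125-64731245), required for cerebellar granule cells and hair cells, had 8.67 and 8.15. The 3 genes did not overlap, and Neurod1 and Atoh1 stood at percentiles 88.5 and 93.9.

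Among the Olig genes, Olig2 (chr16:91225550-91228677), which specifies motor neurons and oligodendrocytes, had 15.5 and 13.7. Olig1 (chr16:91269769-91271939), which acts in oligodendrocyte maturation and whose start lies 44.2 kb from that of Olig2, had 13.2 and 13.5. Olig3 (chr10:19356539-19358604), a factor of dorsal spinal interneurons, had 3.65 and 4.62, the lowest of the 9. Olig2 overlapped Neurog1, Neurog3 and Neurod2, Olig1 lay just below Olig2 without overlap, and Atoh1, Neurod1 and Olig3 followed without overlap. The median of the 9 was 14.6 (range 4.13 to 16.5) against 0.477 for protein-coding genes.

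At the same starts H3K27me1 and H3K27me2 were near or below the genome mean, while H3K36me2 and H3K36me3 ranged from below to above it. H3K27me1 had a median of 0.533 over the 9 genes and was under the genome mean at each (0.397 at Neurod1 to 0.798 at Olig1), with a protein-coding median of 0.954. H3K27me2 had a median of 0.573 against 0.907, and was lowest at Olig2 (0.202 and 0.268 in the 2 libraries) and above the genome mean only at Olig3 (1.17 and 0.881). H3K36me2 spread most: Neurog2 had 0.322 and 0.195, while Neurog3 had 2.11 and 1.96 and Olig3 had 2.07 and 1.93. The Neurog2 libraries did not overlap those of any other member. The H3K36me2 median was 1.16 against 1.27 for protein-coding genes, and the H3K36me3 median was 1.19 against 1.08.

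**Figure D1:**
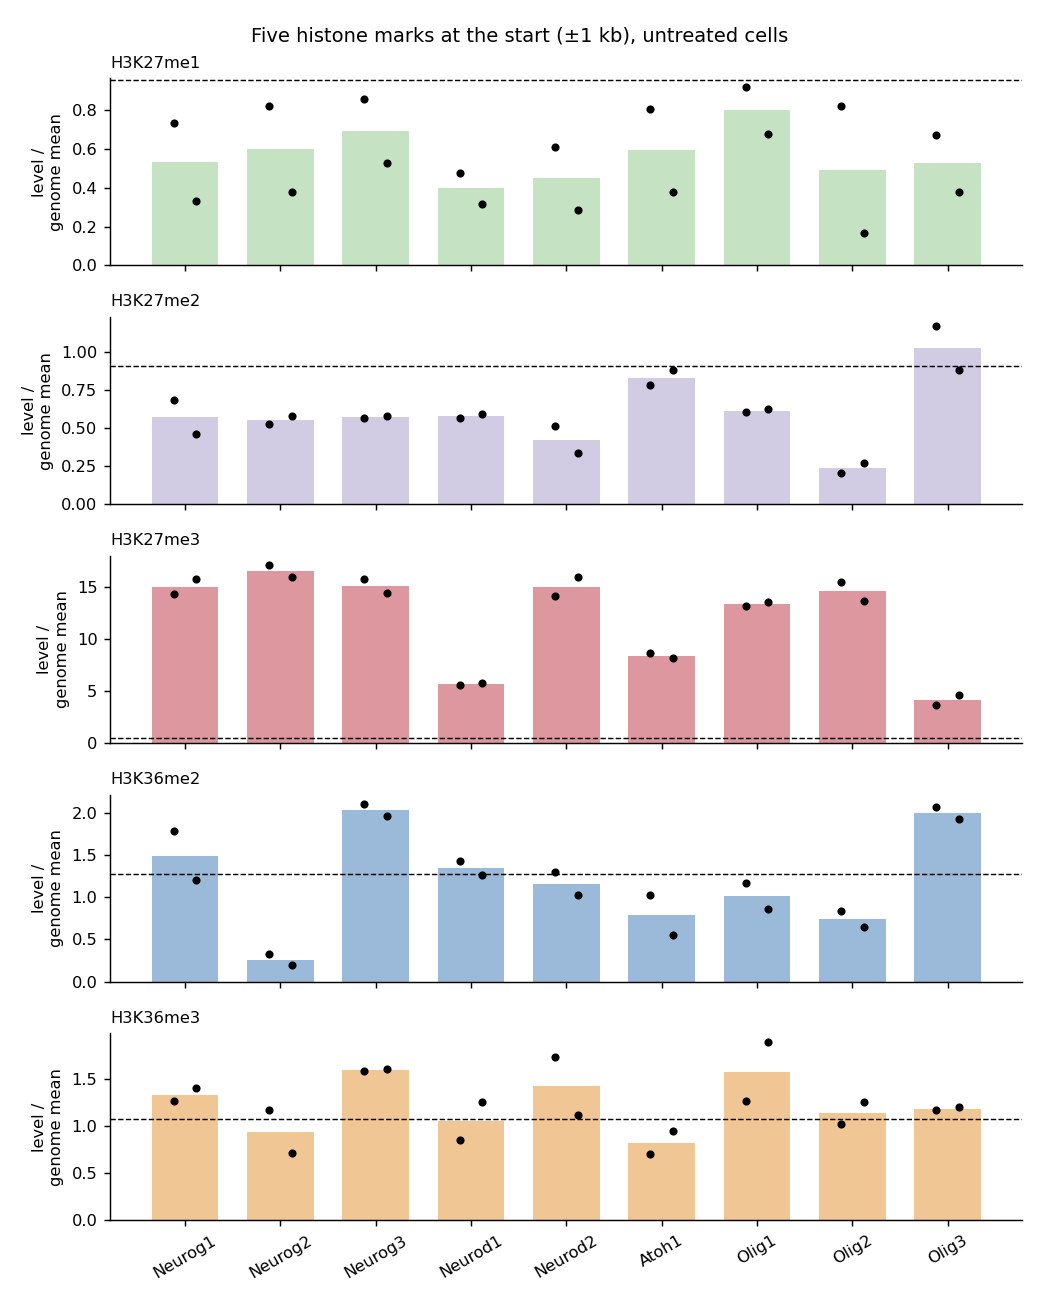
Level of each mark over the start ± 1 kb relative to the genome mean (linear axes from 0), for the 9 genes in untreated cells; bars are means of 2 libraries, points the libraries, dashed lines the medians of protein-coding genes. H3K27me3 is above its dashed line at all 9 genes, lowest at Olig3 (4.13), and H3K36me2 is lowest at Neurog2 (0.258).

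The domains differed in width and in where they peaked. The H3K27me3 peak holding the start was 100 kb wide at Neurog3, 75 kb at Olig1, 52 kb at Neurod2, 46.5 kb at Olig2, 33 kb at Neurog2, 32.5 kb at Neurog1, 20 kb at Atoh1, 12 kb at Olig3 and 10 kb at Neurod1, against a median of 7 kb over 43094 peaks. The order of widths depends on how a domain is bounded. The continuous run of windows around the start at 2 times the genome mean or more, in each library, was 36.5 and 31 kb at Neurog3, 51 and 31.5 kb at Olig1, 34 and 52 kb at Neurod2 and 46.5 and 46 kb at Olig2. By that measure these 4 overlapped or lay close together, and Neurod1 (7 and 7 kb), Atoh1 (12 and 11 kb) and Olig3 (7.5 and 11.5 kb) were again the narrowest. The Olig1 and Olig2 peaks were listed separately (chr16:91255501-91330500 and chr16:91202001-91248500). The gap between them lies upstream of Olig1 and bounds the widths of both, and the Olig1 run ended 14.0 kb upstream in both untreated libraries. Far upstream of Olig1, H3K27me2, H3K27me3 and H3K36me2 are all listed at 0. Whether the peaks form a single domain was not tested. Only the Neurog3 and Neurod2 peaks reached other protein-coding genes, Fam241b and, at Neurod2, Gm33099 and Ppp1r1b. The highest window within 10 kb lay 0.36 to 1.45 kb downstream of the start in both libraries of Neurog1, Neurog2, Neurog3, Neurod2, Atoh1, Olig1 and Olig2. At Neurod1 it lay 2.86 kb upstream in both libraries (12.5 and 11.6 times the genome mean). At Olig3 it lay 4.96 and 5.46 kb downstream (8.39 and 8.06), so the start windows of Neurod1 and Olig3 are off the summit of their domains.

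**Figure D2:**
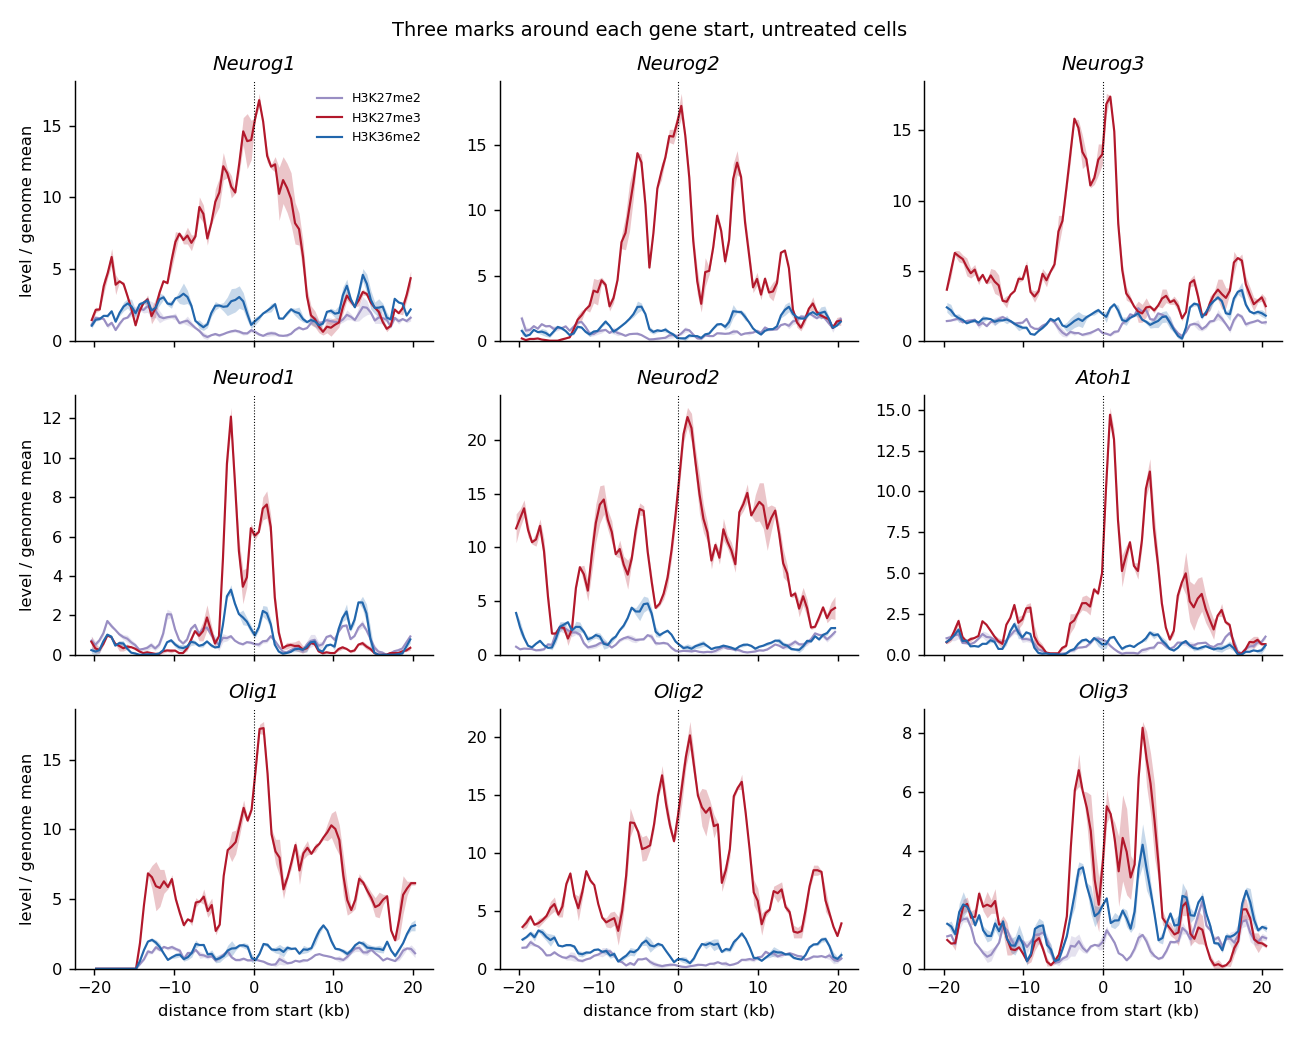
Level relative to the genome mean (vertical, linear, a scale per panel) against distance from the start in kb (horizontal, positive downstream) for H3K27me2, H3K27me3 and H3K36me2 in untreated cells; lines are means and shading the range of 2 libraries. H3K27me3 summits lie within 1.45 kb downstream of the start at 7 genes and away from it at Neurod1 and Olig3; far upstream of Olig1 all 3 marks are listed at 0.

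Whether each mark was higher at the start than around the gene was tested within libraries. The value was the log2 level at the start minus that in the 10 kb before and after the gene (RPM + 0.1). The fit was limma over 25963 genes with the 10 untreated libraries sharing 1 spread. It does not place the summit, which lay off the start at Neurod1 and Olig3. H3K27me3 was higher at the start than in the flanks at 9 of 9 genes, against 33.6% of all genes, and lower at none (36.9% of all genes). Neurod1 had the largest gap, 1.72 ± 0.20 (SE, limma adjusted p = 5.92e-07), from 5.55 and 5.76 at the start to 1.52 and 1.65 in the flanks. Olig3 had the smallest, 0.48 ± 0.17 (limma adjusted p = 0.0205), and Neurod2 (0.50) and Olig2 (0.58) were close to it. Without either H3K27me3 library 6 of 9 remained past the threshold, with Neurod2, Olig2 and Olig3 under it, and with pseudocount 0.02 or no filter 8 did, without Olig2.

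H3K36me2 was lower at the start than in the flanks at 4 of 9 genes (24.5% of all genes) and higher at 1 (20.5%). Neurog2 fell from 1.27 and 1.14 in the flanks to 0.322 and 0.195 at the start, a log2 gap of -1.63 ± 0.18 (SE, limma adjusted p = 6.53e-06) at percentile 0.978 of all genes. Olig2 (-0.98), Neurod2 (-0.52) and Neurog1 (-0.47) followed, and Neurog3 went the other way (0.54, limma adjusted p = 0.0180). These calls were fewer without an H3K36me2 library: Neurog2 and Olig2 remained without replicate 1 and Neurog2 alone without replicate 2, and Neurog3 in neither. The difference between the H3K27me3 and the H3K36me2 gap was itself above 0 at 8 of 9 genes (25.1% of all genes; below 0 at none, 28% of all genes), largest at Neurog2 (2.70 ± 0.26, SE, limma adjusted p = 3.70e-07) and not past the threshold at Olig3 (0.35, limma adjusted p = 0.247). Without H3K36me2 replicate 2, Atoh1 and Neurog3 also missed it, which left 6. Without H3K27me3 replicate 1, or with pseudocount 0.02, Atoh1 missed it, which left 7.

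H3K27me2 was lower at the start than in the flanks at 4 genes (32.9% of all genes), Olig2 (-1.11), Neurod2 (-0.82), Neurog3 (-0.79) and Neurog1 (-0.50), and higher at 1 (11.5%), Atoh1 (0.73, limma adjusted p = 0.00928). Without H3K27me2 replicate 1 the calls of Neurog1 and Atoh1 were lost, and without replicate 2 that of Neurod2 as well. H3K27me1 was lower at Neurod1 (-0.72) and Neurod2 (-0.44, limma adjusted p = 0.0499), 2 of 9 against 32.5% of all genes, and 0 of 9 were higher (9.11% of all genes). The Neurod2 call was also lost with pseudocount 0.02 or 1 and without any single library of H3K27me2, H3K27me3 or H3K36me2. Without H3K27me1 replicate 2 neither passed and Atoh1 was called higher (0.83, limma adjusted p = 0.0327), while without replicate 1 Neurog1 (-0.65) and Olig2 (-1.06) were called lower beside Neurod1. H3K36me3 was higher at the start at Neurod1 (0.74), Neurog3 (0.68) and Olig1 (0.52), 3 of 9 against 18.9% of all genes, and lower at none (38.9% of all genes). Without H3K36me3 replicate 1 the call of Neurog3 was lost, and without replicate 2 those of Neurod1 and Olig1, so none of the 3 held in both.

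After EZH2 inhibition nearly all H3K27me3 was gone on the spike-in scale, at every one of the 9 starts. Values on this scale are the submitters' scaled reads per 1 kb window, and the genome mean went from 42.2 ± 9.17 in DMSO to 0.0790 ± 0.0172 (SD, n = 2), 534-fold lower. All 9 genes fell (limma on log2 of scaled reads + 1), as did 100% of the 15902 genes tested, so the calls say nothing particular about these genes. The test kept only genes with reads in all 4 libraries, and all 9 were kept. The log2 changes ran from -6.11 ± 0.30 at Olig2 to -7.93 ± 0.34 at Neurog2 (SE), with a median of -7.67 against -5.85 over all genes tested. The added 1 shrinks these changes where the treated level is under 1. It also limits each change to log2 of the DMSO level + 1, so these medians do not show a larger loss at the 9 genes. Linear folds are given below and ran from 74.4-fold at Olig2 to 637-fold at Olig3, against 534-fold for the genome mean.

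Olig2 went from 1137 and 942 scaled reads in DMSO to 13.9 and 14.1 after the inhibitor, 74.4-fold lower, the smallest loss of the 9. Neurod2 went from 1154 and 794 to 7.93 and 10.2, which was 107-fold lower. Both genes lay above the other 7 in both treated libraries. Neurog1 (1131 and 780 to 3.63 and 4.11), Neurog3 (1108 and 709 to 3.39 and 3.32) and Neurog2 (1153 and 803 to 2.36 and 3.66) fell 247-, 271- and 325-fold. Olig1 (859 and 629 to 2.90 and 2.00) fell 303-fold and Atoh1 (648 and 494 to 1.45 and 1.71) fell 361-fold. Neurod1 (281 and 167 to 0.544 and 0.322) fell 517-fold and Olig3 (348 and 265 to 0.666 and 0.297) 637-fold, but these rest on 12 and 9 window counts in both treated libraries together, where 1 read can fall in more than 1 window. Both treated libraries lay below both DMSO libraries at all 9, as at 100% of the 15902 genes tested.

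**Figure D3:**
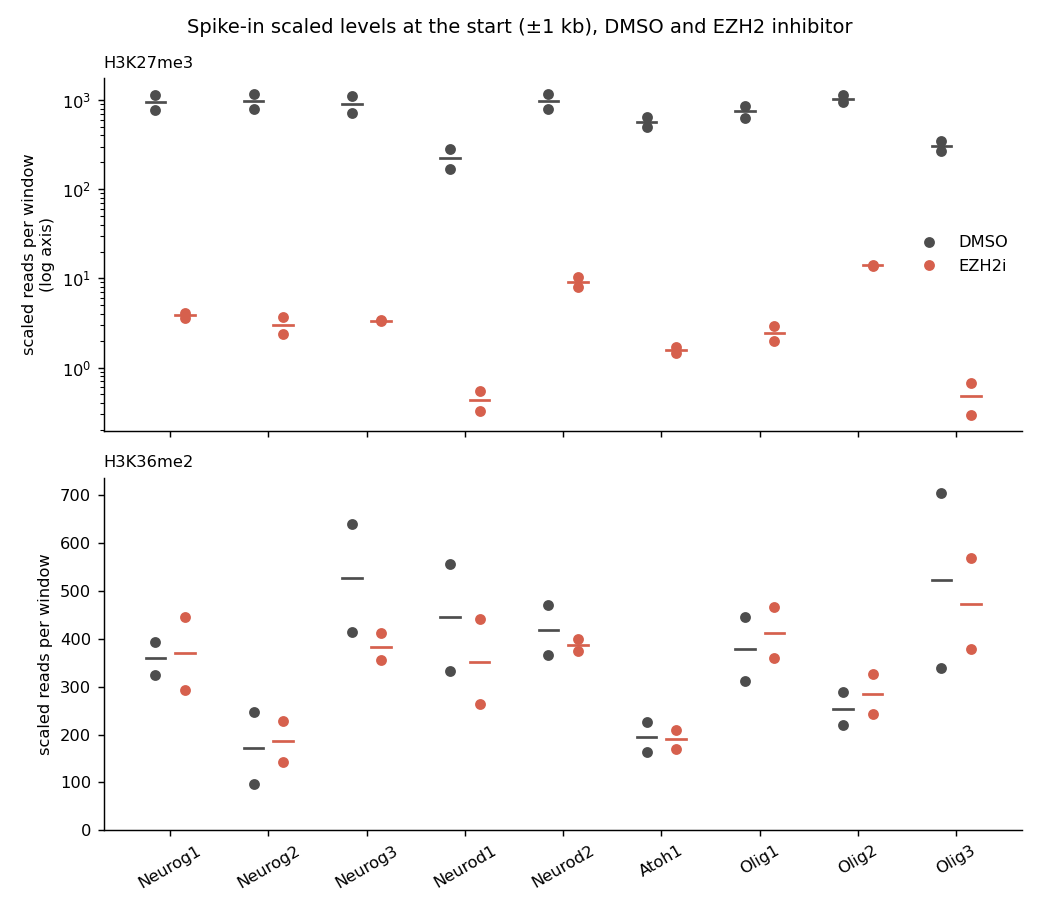
Spike-in scaled reads per window over the start ± 1 kb for H3K27me3 (upper, log axis) and H3K36me2 (lower, linear axis from 0); points are libraries and short lines the means of 2, in DMSO and after the EZH2 inhibitor (EZH2i). H3K27me3 is lower in both treated libraries at all 9 genes and highest after treatment at Olig2 (14.0), while H3K36me2 points overlap at 8 of 9 genes.

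Relative to each library's own mean, the H3K27me3 left after the inhibitor lay unevenly over the 9 genes. Olig2 stood at 23.4 and 26.4 times the library mean in DMSO and at 152 and 211 after the inhibitor, on 92 and 208 window counts. Neurod2 went from 23.7 and 22.2 to 87.0 and 153, on 90 and 291 window counts. Among 17274 protein-coding genes Olig2 moved from rank 36 to rank 7 and Neurod2 from rank 72 to rank 18. The neurogenins went down in rank, Neurog1 from 85 to 127, Neurog2 from 69 to 179 and Neurog3 from 119 to 161. Olig1 (287 to 258), Atoh1 (669 to 379), Neurod1 (2749 to 1482) and Olig3 (1910 to 1273) also went up. Those of Neurod1 and Olig3 rest on 12 and 9 window counts after the inhibitor. On this scale 2 of 9 genes rose, against 27.1% of all genes: Olig2 by 2.85 ± 0.46 (log2, SE, limma adjusted p = 0.0118) and Neurod2 by 2.33 ± 0.50 (limma adjusted p = 0.0214). None fell (3.72% of all genes), and the median change was 0.81 for the 9 genes and 0.48 for all genes. The share called higher was thus not above that over all genes. The changes of Olig2 and Neurod2 lay at percentiles 83.4 and 76.7 of all genes tested. Both calls were lost without either DMSO library (limma adjusted p between 0.0529 and 0.158), where 1 lone sample was assumed to vary like the other group, and that of Neurod2 also with no filter on reads (0.0730). Leaving out 1 library gave changes of 0.82 to 1.45 at Neurog1, 0.17 to 1.25 at Neurog2 and 0.81 to 1.22 at Neurog3.

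The remaining 7 did not pass. Neurog1 had 39.8 and 61.5 after the inhibitor against 23.2 and 21.9 in DMSO. Neurog3 had 37.2 and 49.6 against 22.8 and 19.8, and Neurog2 had 25.9 and 54.8 against 23.7 and 22.5. Both treated libraries lay above both DMSO libraries at these 3 neurogenins, and also at Olig1, Atoh1, Olig2 and Neurod2, 7 of 9 genes against 46.7% of all genes. Neurod1 (5.97 and 4.82 against 5.77 and 4.67) and Olig3 (7.30 and 4.45 against 7.14 and 7.43) overlapped. Starts without an H3K27me3 peak also stood higher on this scale, with a protein-coding median of 0.305 in DMSO and 1.33 after the inhibitor, while starts with a peak had medians of 4.68 and 2.89. The part that reads unrelated to the mark take in the sparse treated libraries was not tested. Over the gene body 6 of 9 genes rose on this scale, against 32.1% of all genes, Neurog1 (1.42), Neurog3 (1.34), Neurod2 (2.99), Atoh1 (1.27), Olig1 (1.25) and Olig2 (3.12).

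The ratio of the start to its flanks gives how concentrated the H3K27me3 signal was. At Olig2 the start was 2.02 and 2.02 times its flanks in DMSO and 9.98 and 9.90 times after the inhibitor. At Neurod2 the ratio went from 1.75 and 1.53 to 5.63 and 5.53, and at Olig1 from 2.46 and 2.08 to 7.60 and 6.75. Neurog1 (2.75 and 2.45 to 8.91 and 5.76) and Neurog2 (2.97 and 2.66 to 3.66 and 5.66) were also above in both treated libraries, making 5 of 9 genes against 41.5% of all genes. Neurog3 (3.19 and 2.64 to 2.47 and 2.38) and Neurod1 (3.59 and 3.48 to 3.17 and 3.17) were below, against 20.6% of all genes, and Atoh1 and Olig3 overlapped. In a fit of this ratio over 15756 genes, added after these values had been seen, only Olig2 passed, 1 of 9 against 6.66% of all genes higher and 1% lower (log2 difference 2.30 ± 0.44, SE, limma adjusted p = 0.0453). Neurod2 (1.77, limma adjusted p = 0.0668), Olig1 (1.64, 0.0763) and Neurog1 (1.46, 0.110) did not. These misses do not show that the 3 genes were unchanged, and their difference from Olig2 was not tested. With the gene body in place of the start, 4 of 9 genes passed as higher (share of all genes not given here). The single call therefore depends on the region used. The Olig2 call was lost with no filter on reads (0.139) and without DMSO replicate 1 (0.399) or replicate 2 (0.439). Leaving out 1 library gave log2 differences of 2.29 to 2.30 at Olig2, 1.67 to 1.86 at Neurod2 and 1.52 to 1.76 at Olig1. They were 1.15 to 1.76 at Neurog1 and 0.38 to 1.01 at Neurog2.

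The place of the summit within 10 kb of the start stayed at Olig2 (1.45 kb downstream in all 4 libraries, 268 and 430 times the library mean after the inhibitor). At Neurog3 the treated summit lay upstream in both libraries, at -3.59 kb (127 times the library mean) and -3.09 kb (148), whereas the DMSO libraries had it at 0.41 kb (28.1) and -3.59 kb (25.7). At Neurog2 it moved from 0.36 kb downstream in both DMSO libraries to 1.14 kb upstream in both treated ones (37.2 and 81.5). In the 10 kb flanks, relative to the library mean, 1 of 9 genes passed the test as higher, against 19.1% of all genes: Neurog3 went from 7.14 and 7.51 to 15.0 and 20.9 (log2 1.27, limma adjusted p = 0.0312). Both treated libraries also lay above both DMSO libraries in the flanks of Neurod2, Atoh1 and Olig2, which with Neurog3 makes 4 of 9 against 39.3% of all genes. Both lay below at Olig1 (7.17 and 8.47 to 4.19 and 4.45) and Olig3 (2.95 and 3.36 to 1.61 and 1.91), 2 of 9 against 31.1% of all genes.

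**Figure D4:**
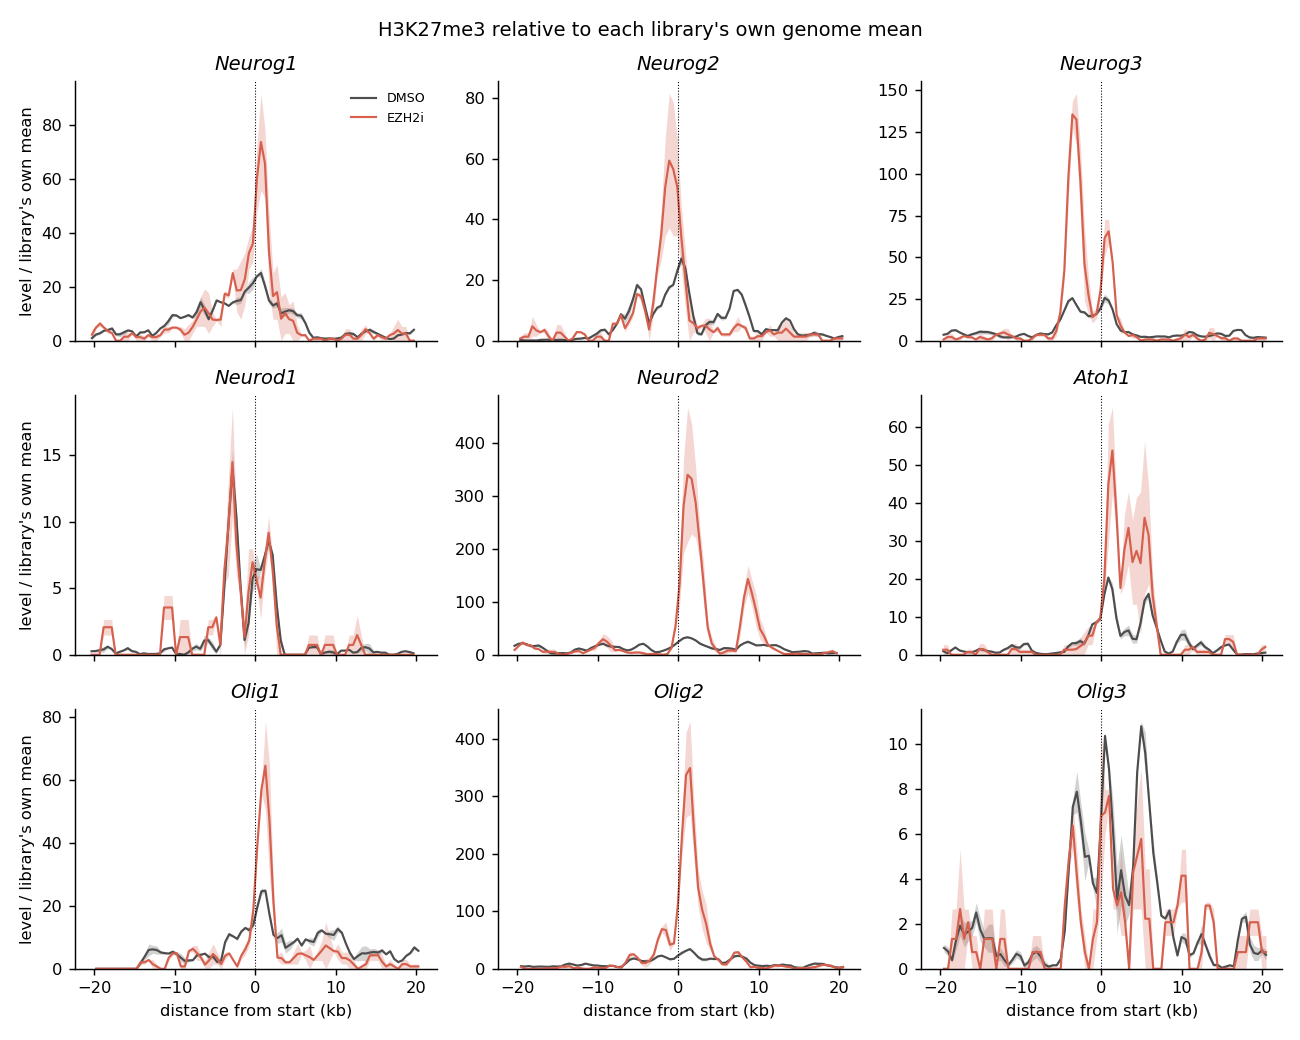
H3K27me3 relative to each library's own genome mean (vertical, linear, a scale per panel) against distance from the start in kb (positive downstream), in DMSO and after the EZH2 inhibitor (EZH2i); lines are means and shading the range of 2 libraries. Treated summits stand highest at Olig2 and Neurod2 and lie upstream of the start at Neurog3 and Neurog2; levels here cannot be compared between treatments as amounts, since the treated genome mean is 534-fold lower.

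H3K36me2 did not change past the threshold at any of the 9 starts after the inhibitor. On the spike-in scale 0 of 9 were called, against 0.0192% of 26097 genes higher and 0% lower (limma), and 0 of 9 had an unadjusted p under 0.05. The log2 differences ran from -0.43 at Neurog3 to 0.22 at Neurog2, each with an SE of 0.56. Differences of this size were therefore not detectable on this scale with 2 libraries per group. Neurog3 had 639.0 and 414.0 scaled reads in DMSO and 354.7 and 412.8 after the inhibitor, the only gene whose groups did not overlap, though narrowly (1.3% of all genes were lower in this way and 8.03% higher). Neurog2, the gene poorest in H3K36me2, had 247 and 97.3 in DMSO and 229 and 143 after the inhibitor. Olig2 had 288 and 220 against 326 and 243, and both genes overlapped between groups.

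Limma-voom on whole reads, with library sizes from the spike-in factors, also called 0 of 9 genes for H3K36me2. Relative to the library mean H3K36me2 was again called at 0 of 9 genes (0% of all genes in each direction). The lowest unadjusted p was 0.0183 at Neurod1 (log2 -0.54 ± 0.17, SE, limma adjusted p = 0.293), from 1.72 and 1.56 to 1.09 and 1.17. Neurog3 (1.98 and 1.94 to 0.878 and 1.82) and Neurod1 were lower in both treated libraries, 2 of 9 against 37.1% of all genes. The genome mean of H3K36me2 was 268 ± 77.9 in DMSO and 315 ± 126 scaled reads after the inhibitor (SD, n = 2), from 323 and 213 to 404 and 227. The median change over all genes was 0.06 on the spike-in scale and -0.14 relative to library means, and that of the 9 genes was -0.03 and -0.24.

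The other genes of the pathway spanned a wider range of untreated H3K27me3 than the 9. In the start against flank counts below, 33.6% of all genes were higher and 36.9% lower. Among 8 further neural bHLH genes with an annotated start (of 10), 6 were above 2 times the genome mean, from Neurod4 at 0.390 ± 0.087 to Bhlhe23 at 16.4 ± 0.707 (SD, n = 2), and 6 were higher at the start than in the flanks with 0 lower (Atoh7, Atoh8, Bhlhe23, Nhlh1, Nhlh2 and Ptf1a). Of 9 Notch ligands and receptors, 4 were above 2 times the genome mean. The ligand gene Dll4 had the highest level (16.9 ± 0.515) and the receptor gene Notch4 the lowest (0.174 ± 0.114), and the start was higher than the flanks at Dll1, Dll3, Dll4 and Jag2 and lower at Notch2 and Notch4. Of 9 Hes and Hey repressor genes only 4 have a start entry, from Hes6 at 3.15 ± 0.486 to Hes5, a Notch effector in neural progenitors, at 14.4 ± 1.37, with Hes5, Hes7 and Hey2 higher and Hes6 lower at the start. Over the gene body, with values for all 9, H3K27me3 ranged from 0.105 at Hes1 to 13.7 at Hes5. On that measure 8 of 9 were above 2 times the genome mean, against 23.5% of protein-coding genes. Of 7 E protein and Id genes 5 have a start entry, from Tcf3 (0.00980), which encodes the E protein partner E2A, to Id3 (5.25 ± 1.19), with 0 higher and Tcf3 and Id4 lower. Protein-coding genes above 2 times the genome mean made up 28.2%, and all 9 members were above it.

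After the inhibitor every tested gene of these lists fell on the spike-in scale (5 neural bHLH, 8 Notch, 4 Hes and Hey, 5 E protein and Id genes), as did 100% of all genes tested. Relative to library means, 0 of 5 neural bHLH genes were called, 2 of 8 Notch genes rose and 1 fell, 0 of 4 Hes and Hey genes were called and 1 of 5 E protein and Id genes rose, against 27.1% of all genes higher and 3.72% lower. The ligand genes went different ways: Dll4 rose by 2.38 ± 0.49 (log2, SE, limma adjusted p = 0.0195) and Dll1 by 2.07 ± 0.44 (0.0214), while Dll3 fell by 2.39 (SE 0.44, 0.0152). Tcf3 rose by 3.94 from a start almost without the mark in untreated cells (0.00980 ± 0.0139 times the genome mean, SD, n = 2). Protein-coding starts without an H3K27me3 peak also stood higher on this scale (median 0.305 in DMSO and 1.33 after the inhibitor). Whether the rise at Tcf3 reflects the mark was not tested. No gene of the lists was called for H3K36me2.

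By the 5 marks at the start, the protein-coding genes nearest to the median profile of the 9 were Ascl2 (Euclidean distance 0.251 on log2 relative levels, means of 2 libraries), Six2 (0.370), Adra2a (0.370), Fndc1 (0.371) and Bean1 (0.390). Ascl2, a bHLH gene of the trophoblast and intestinal stem cells, had H3K27me3 at 14.1 and H3K36me2 at 0.973. Six2, a homeobox gene of kidney progenitors, had 12.7 and 1.13. Neurog1 (0.390) was the member nearest to that profile, and Neurog2 (2.01) and Olig3 (2.11) were the farthest, Neurog2 with the lowest H3K36me2 of the 9 and Olig3 with the lowest H3K27me3 and the highest H3K27me2.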

How the data were processed

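The 18 deposited tracks give, per the file contents, log2 of 1 + scaled reads in 1 kb windows every 500 bases (5451088 windows). The submitters' processing notes name Trim Galore 0.4.2, Bowtie2 2.2.6.2 and SICER with the builds mm10 and dm3. Read extension, duplicate handling and the spike-in formula are not given in the sources used here. Each deposited log2 value was converted back to a linear one and came out as whole reads times 1 factor per library in 100% of windows (tolerance 0.02). In untreated libraries that factor gives RPM (reads per library of 1 M). In quantitative libraries it was taken as the spike-in factor. Deposited peak scores, per the file contents a value per replicated peak, only ranked peaks within a list.

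Starts and promoter sequences came from RefSeq (GRCm38.p6), with the most upstream start entry in the promoter table per gene. Olig1 has no entry, so the lower coordinate of its gene was used, from general knowledge of its strand, with the other end as an alternative. Comparisons used limma 3.58.1 in R 4.3.3 with Benjamini-Hochberg adjustment over all genes tested and a threshold of 0.05. A pseudocount of 1 was added to scaled reads and of 0.1 to RPM. The untreated fit needed a mean of 0.1 RPM, and the inhibitor fit a value above 0 in all 4 libraries. Flanks leave out windows centred within 1 kb of the start. Linear folds use group means. The fits were tested on simulated data with changes put in at known genes. Those of H3K27me3 after the inhibitor missed most small changes and recovered nearly all large ones. With large changes the fit at the start also called unchanged genes. Named genes were all 9 members, the highest and lowest gene of each list by untreated H3K27me3 and the 5 most alike. Other list genes are named because they passed a test, and were chosen after their values were seen. The members and lists were chosen with earlier results of these data known. No other columns of per-sample values were present. Python 3.11.15 with numpy 2.4.6, pandas 2.3.3 and matplotlib 3.10.9 was used.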

Additional observations from a re-analysis of the deposited data

How the results depend on the processing

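All counts and values here are from limma. The direction and side of the threshold held in 1088 of 1235 alternative values for the 9 genes, while 58 reversed, 57 fell short of the threshold and 32 passed it anew. The values that held include 2 counts of members with a peak. Leaving out a library of another mark cannot change the direction of an untreated value. The share that held therefore overstates how far the values were put to the test. The number of genes called for H3K27me3 on the spike-in scale (15902 of 15902 tested) was 4909 relative to library means, 24831 with no filter and 25510 over 10 kb flanks, where more genes are tested. Relative to library means (4909) it was 2871 with no filter, 9162 over gene bodies and 2277 to 8225 with 1 library left out. For H3K36me2 after the inhibitor (5) it was 0 relative to library means, with no filter, with limma-voom on whole reads, over 10 kb flanks and with the replicate block, 21 with pseudocount 0.1, 19 over gene bodies and 0 to 80 with 1 library left out. For the start-to-flank change after the inhibitor (1208) it was 698 with pseudocount 0.5, 0 with no filter, 2876 with the replicate block and 0 to 7945 with 1 library left out. With 1 library left out the untreated start against flank counts ranged from 5401 to 11093 (H3K27me1), 6531 to 12273 (H3K27me2) and 5418 to 12608 (H3K36me2). The deviations of same-numbered libraries had a correlation across genes of 0.0276 for H3K27me3 and 0.132 for H3K36me2. With 2 pairs and no label that ties the numbers to a shared culture or day, the pairing is not established. The replicate block changed no call of the 9 genes. The cause of these moves was not tested.

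Relative to library means H3K27me3 after the inhibitor changed sign against the spike-in scale, to 1.13 at Neurog1, 0.71 at Neurog2, 1.01 at Neurog3, 0.047 at Neurod1, 2.33 at Neurod2, 0.57 at Atoh1, 0.81 at Olig1 and 2.85 at Olig2, since the genome mean is divided out. On that scale it reversed to -0.26 over the Neurod1 body and to -0.33 and -0.85 in the flanks of Neurog1 and Olig1, and with 1 library left out it spanned -0.11 to 0.20 at Neurod1 and -0.71 to 0.0029 at Olig3. H3K36me2 after the inhibitor reversed relative to library means at Neurog1 (-0.19), Olig1 (-0.066) and Olig2 (-0.041), with limma-voom at Olig2 (-0.015), over bodies at Atoh1 (0.33), Olig2 (-0.029) and Olig3 (0.098) and in flanks at Atoh1 (0.29) and Olig3 (0.030). With 1 library left out it spanned -0.28 to 0.31 at Neurog1, -0.45 to 0.89 at Neurog2, -0.70 to 0.033 at Neurod1, -0.28 to 0.075 at Neurod2, -0.27 to 0.20 at Atoh1, -0.12 to 0.39 at Olig1, -0.050 to 0.37 at Olig2 and -0.60 to 0.45 at Olig3. The start against flank values that reversed over the gene body were H3K27me1 at Olig1 (-0.19) and Olig3 (-0.19), H3K36me2 at Olig3 (-0.0038) and H3K36me3 at Neurog1 (0.026) and Olig2 (0.30). With the Olig1 start at the other end of the gene, its H3K27me1 value was -0.64 and its H3K36me2 value 0.10. With 1 library left out H3K27me1 spanned -0.084 to 0.44 at Neurog2, -0.28 to 0.045 at Neurog3, -0.11 to 0.30 at Olig1, -1.06 to 0.18 at Olig2 and -0.16 to 0.31 at Olig3. H3K27me2 spanned -0.035 to 0.11 at Neurog2, H3K36me2 -0.045 to 0.65 at Atoh1, and H3K36me3 -0.35 to 0.067 at Neurog2 and -0.34 to 0.19 at Neurod2. The start-to-flank change reversed over the body at Neurog3 (0.078) and Atoh1 (0.50) and spanned -0.47 to 0.087 at Atoh1 and -0.010 to 0.93 at Olig3 with 1 library left out.

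Depth limits the treated H3K27me3 values, since those of Neurod1 and Olig3 rest on 12 and 9 window counts.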
